A study of Mus musculus with 12 samples.

Results

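The mouse collagen genes were followed in single nuclei of the cortex at postnatal day 21, across neuronal layers, interneurons and leptomeningeal cells and between MYT1L Het and WT animals. Every gene whose symbol reads Col, a number, the letter a and a number was a member, and the rule itself uses no measured value. This gave 44 of the 55336 annotated genes. In the 33116 nuclei kept for the levels below, all 44 were detected, 43 of them in every animal. There they held 84021.6 UMIs together, and the 5 most abundant members held 61.4% of these.

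Collagens are trimeric proteins of the extracellular matrix. Fibrillar members such as Col1a1, Col1a2 and Col3a1 are made by fibroblasts, including those of the meninges, while the type IV chains form basement membranes around vessels. Others are transmembrane proteins, such as Col23a1 and Col25a1, or are associated with fibrils, such as Col12a1, Col14a1 and Col19a1. In the brain, several of them are used as markers of neuron types.

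The 12 animals were 6 WT and 6 Het (3 of each sex per genotype), all aged 21 days and on a C57BL/6 background. Het animals carried 1 germline MYT1L S710fsX allele, a frameshift in a neuronal transcription factor, in all their cells. Per the study's methods, animals of both genotypes had received AAV9 carrying a tdTomato calling-card construct as newborn pups and came from several litters. The litter of each animal is not given in the labels, so its part in the results was not tested, and the p-values below measure the spread between animals.

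Each animal gave 4059 to 8798 barcodes with 23425407 to 59947430 UMIs, and 33116 nuclei remained after the limits of the study and removal of likely doublets. Sex-linked transcripts matched the labelled sex in 12 of 12 libraries. Myt1l itself measured 828.7 to 943 CPM in WT (median 890.1) and 926 to 1011 CPM in Het (median 992). It was thus not lower in Het (ratio of means 1.12, exact two-sided permutation p = 0.00433), and since the counts do not separate the 2 alleles this level does not check the genotype labels. Over all barcodes, before the limits on nuclei, collagens took 654 to 694 UMIs per 1000000 in the 6 WT libraries. In the 6 Het libraries they took 664 to 767.

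Nuclei were clustered without the collagen genes and named from marker genes. Of all nuclei, 24394 (73.7%) fell in 25 named types, written here with the ending -like, and 23 of these types had at least 10 nuclei in 3 or more animals. Levels are counts per 1000000 UMIs (CPM) of the nuclei of a type summed per animal. They compare 1 gene between types, not genes with each other, since they are not scaled to gene length. The levels by type are descriptions of clusters made from the same nuclei and carry no test.

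**Figure D1:**
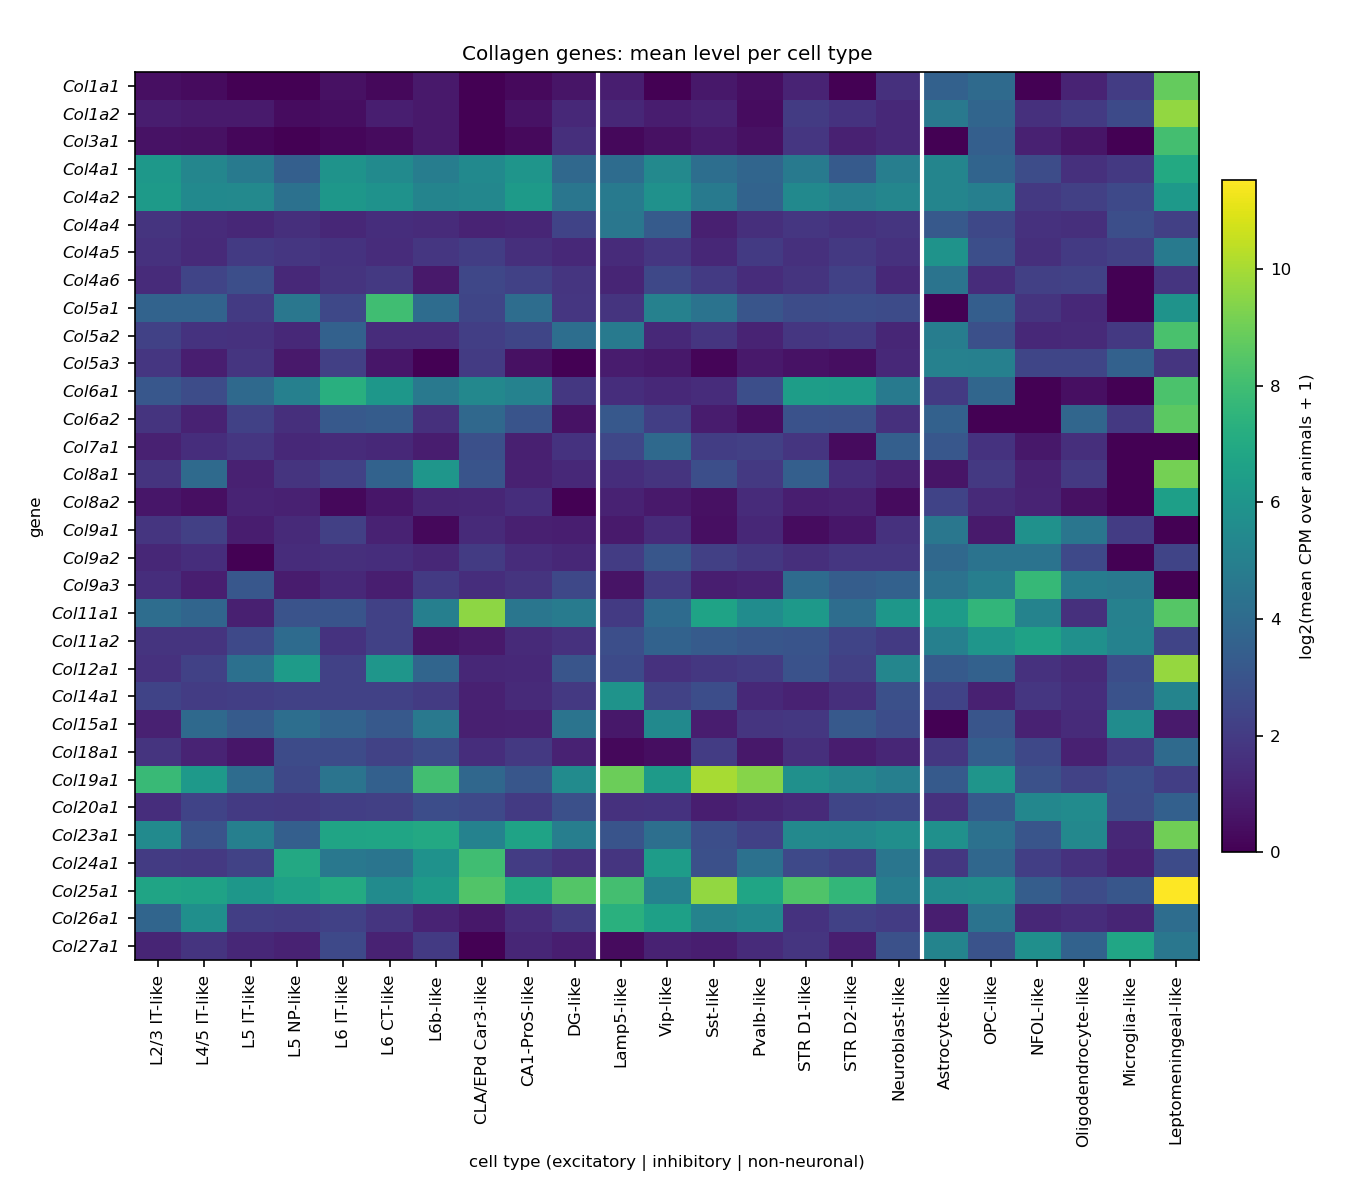
Mean level of the 32 collagen genes that stood out in at least 1 cell type (rows) in the 23 cell types with at least 3 animals (columns: excitatory, inhibitory and non-neuronal, parted by white lines), as log2 of the mean CPM over animals plus 1. Col1a1, Col1a2 and Col3a1 are brightest in the leptomeningeal-like column, while Col19a1 and Col25a1 are bright in several neuronal columns.

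A member was taken to stand out in a type when its mean there was at least 10 CPM and at least 4 times the median of the other types of the same group (excitatory, inhibitory or non-neuronal). This held for 92 pairs of a gene and a type, from 32 of the 44 members: 23 pairs in excitatory, 21 in inhibitory and 48 in non-neuronal types. In 55 of the pairs the type was the highest of its group, and for 47 of those 55 it was the highest in WT and in Het alike. The ranges over animals did not overlap with the next type in 19 of the 55. The highest types were picked from the same animals, and the share of all genes that meet this rule was not computed. These counts therefore do not set collagens apart from other genes. Of the other 12 members, Col16a1 and Col22a1 reached 10 CPM in a type without standing out. The remaining 10 (Col2a1, Col4a3, Col6a3, Col6a4, Col6a5, Col6a6, Col10a1, Col13a1, Col17a1 and Col28a1) stayed under 10 CPM in all 23 types.

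In the excitatory types, 11 members stood out in at least 1 type, some of them in both an upper and a deep one. Col19a1, a fibril-associated collagen (chr1:24261890-24587472, minus strand, mm10), was high in L6b-like nuclei of the deepest layer and in L2/3 IT-like (intratelencephalic) nuclei of the upper layers. It measured 205 to 323 CPM in L6b-like nuclei (median 275, mean 266 ± 41.0, SD, n = 12 animals) and 156 to 310.3 CPM in L2/3 IT-like nuclei (median 214, mean 227 ± 58.4). Those ranges overlapped, and L6b-like nuclei were higher in 9 of 12 animals. In L4/5 IT-like nuclei it measured 42.0 to 122 CPM (mean 71.3 ± 24.3), below every animal of both. The median over the other excitatory types, which include hippocampal and claustrum-like ones, was 15.7 CPM.

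Col26a1, which encodes a secreted protein with collagen repeats, marked the L4/5 IT-like nuclei. Its level there was 11.2 to 84.7 CPM (median 51.6, mean 52.9 ± 21.8, n = 12), against a mean of 12.6 ± 9.74 in L2/3 IT-like nuclei, the next type. It was higher in 12 of 12 animals, although the ranges overlapped. The low end came from a WT female, as described further below.

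Layer 6 was divided between 2 members. Col5a1, a chain of the fibril-regulating type V collagen (chr2:27886425-28039514, plus strand, mm10), measured 181 to 317 CPM in L6 CT-like (corticothalamic) nuclei (median 272, mean 257 ± 49.3). The next excitatory type, L5 NP-like (near-projecting), had a mean of 23.0 ± 20.1 CPM and did not overlap. Col6a1, a chain of the microfibrillar type VI collagen (chr10:76708792-76726168, minus strand, mm10), was instead highest in L6 IT-like nuclei at 103 to 219 CPM (median 146, mean 154 ± 32.6). It was lower in L6 CT-like nuclei (mean 68.3 ± 9.10) in 12 of 12 animals, without overlap.

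Other members marked rarer deep types. Col8a1, a short-chain collagen, measured 26.0 to 133 CPM in L6b-like nuclei (median 59.5, mean 64.8 ± 30.0). It was higher than in L4/5 IT-like nuclei (mean 14.9 ± 8.51) in 12 of 12 animals, although the ranges overlapped. Col12a1, a fibril-associated collagen, was shared by L5 NP-like (mean 78.8 ± 44.2) and L6 CT-like nuclei (mean 65.8 ± 13.8), the former higher in 7 of 12 animals and the ranges overlapping. Col24a1, a minor fibrillar collagen, reached 65.4 to 180.1 CPM in L5 NP-like nuclei (mean 123.2 ± 27.4) and 81.6 to 675 CPM in CLA/EPd Car3-like nuclei of the claustrum and endopiriform region (mean 258 ± 183). The latter type had 13 to 45 nuclei per animal.

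Col11a1, a fibrillar collagen (chr3:114030540-114220718, plus strand, mm10), was almost exclusive to the CLA/EPd Car3-like nuclei among the excitatory types. It measured 357 to 1047 CPM there (median 808, mean 769 ± 244), 61.6 times the median of the other excitatory types. The next type, L6b-like, had a mean of 30.2 ± 26.6 CPM and did not overlap. At lower levels, Col11a2 stood out in L5 NP-like nuclei (mean 15.5 ± 10.1), Col5a2 in nuclei like those of the dentate gyrus (DG, mean 17.1 ± 16.7) and Col6a2 in CLA/EPd Car3-like nuclei (mean 13.9 ± 13.6), with overlapping ranges in each case.

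**Figure D2:**
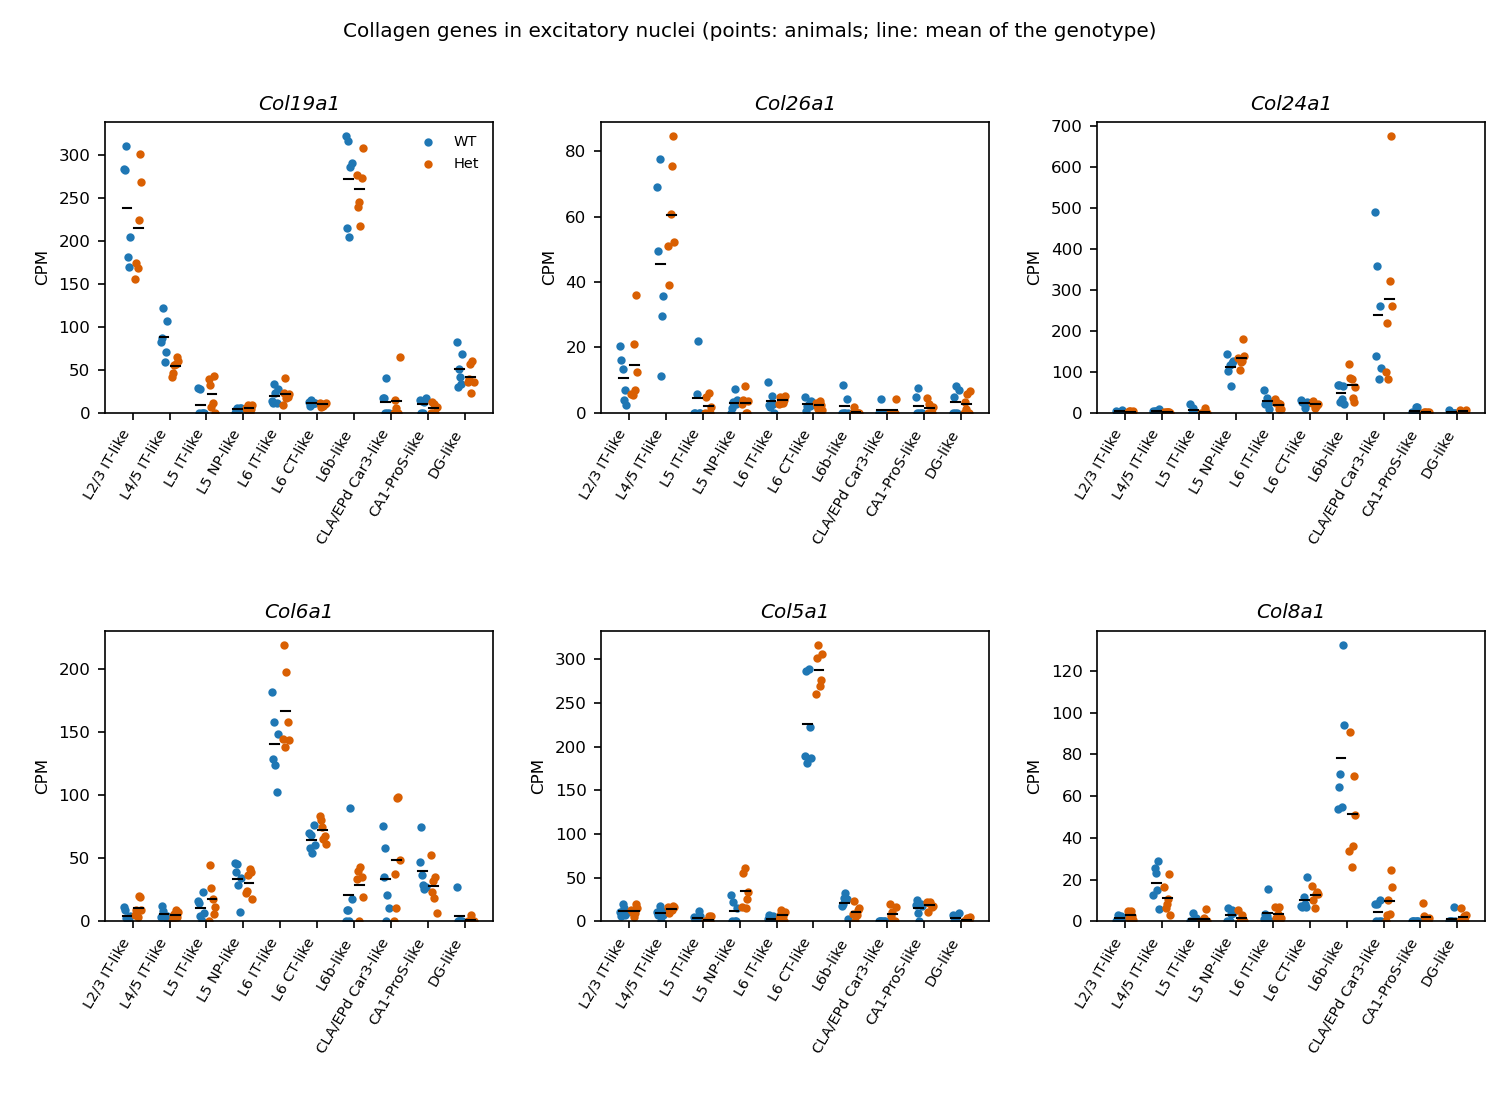
Level in CPM of 6 collagen genes in the 10 excitatory cell types, 1 point per animal (blue WT, orange Het) with a line at the mean of each genotype. Col5a1 stands out in L6 CT-like nuclei (181 to 317 CPM), Col6a1 in L6 IT-like nuclei (103 to 219 CPM) and Col19a1 in both L6b-like and L2/3 IT-like nuclei.

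Single clusters within a layer differed further, as pooled values with exact 95% Poisson intervals that cover counting error only. The 2 clusters of L6 IT-like nuclei differed in Col23a1, a transmembrane collagen, at 514 CPM (465 to 566) in 220 nuclei led by Npsr1 against 45.0 CPM (39.5 to 51.1) in 1527 nuclei led by Blnk. Col6a1 was also higher in the smaller one (287 against 143 CPM). Among L5 NP-like nuclei, Col12a1 was at 99.1 CPM (86.9 to 113) in the cluster of 680 nuclei led by Nxph1 and at 0.556 CPM (up to 7.27) in that of 156 nuclei led by Sntb1. Col24a1 followed the same split, at 152 and 13.3 CPM.

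The L6 CT-like clusters all held Col5a1 (206 to 310 CPM). In contrast, Col6a1, Col12a1 and Col23a1 were low in the cluster of 632 nuclei led by Cobll1 and Rxfp1. Col6a1 was at 3.08 CPM there, against 74.2 and 88.4 CPM in the clusters led by Foxp2. Col23a1 was at 5.49 CPM, against 170 and 85.7 CPM.

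Among the interneurons, Col19a1 stood out in Sst-like, Pvalb-like and Lamp5-like nuclei, and Col25a1 in Sst-like nuclei only. Col19a1 was highest in Sst-like nuclei at 878 to 1243 CPM (median 1052, mean 1049 ± 126, n = 12). Pvalb-like nuclei followed at 577 to 779 CPM (mean 682 ± 64.7) and Lamp5-like nuclei at 353 to 584 CPM (mean 492 ± 74.6). The Sst-like range lay above the Pvalb-like range, whereas Pvalb-like and Lamp5-like ranges touched.

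Col25a1, a transmembrane collagen that can bind amyloid and is known for a part in motor innervation (chr3:130131501-130599877, plus strand, mm10), was also highest in Sst-like nuclei among neurons. It measured 525.7 to 1360 CPM (median 786, mean 810.2 ± 215). Among inhibitory types, nuclei like those of striatal D1 neurons came next (mean 325 ± 58.4) and did not overlap. Unlike the layer markers, Col25a1 was present in most excitatory types as well, from 46.8 ± 11.5 CPM in L6 CT-like to 350.1 ± 92.7 CPM in DG-like nuclei.

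Across the 3 Sst-like clusters these genes ran in opposite order. The 641 nuclei led by Lama4 and Crhbp held Col19a1 at 1301 CPM (1255 to 1349) and Col25a1 at 487 CPM (458 to 517). The 240 nuclei led by Moxd1 and Zfpm2 held 649 and 924.3 CPM. The 76 nuclei led by Hhip, Tacr1 and Nos1, with Chodl and Npy among their top genes, held 147 CPM of Col19a1 (106 to 199) and 3314 CPM of Col25a1 (3105 to 3533).

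That last cluster also held Col11a1 at 454 CPM (378 to 539), against 95.8 and 24.0 CPM in the other Sst-like clusters. A further 354 nuclei led by Sox6, Lypd6b and Lypd6 shared Sst markers without reaching the criteria for a name, and had Col19a1 at 1248 CPM. Among Pvalb-like clusters Col19a1 ranged from 385 CPM (333 to 442) to 978 CPM (939 to 1018).

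In Lamp5-like nuclei 5 members stood out. Besides Col19a1, Col26a1 reached 96.8 to 207 CPM (mean 161 ± 30.5). It was higher than in Vip-like nuclei (mean 93.9 ± 37.8) in 12 of 12 animals, although the ranges overlapped. Col14a1, a fibril-associated collagen, reached 24.9 to 85.6 CPM (mean 59.2 ± 21.8) and did not overlap with any other inhibitory type in its range over animals. Col5a2 (mean 26.0 ± 15.8) and Col4a4, a basement membrane chain (mean 22.9 ± 11.9), were highest in this type too, with overlap.

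The 2 Lamp5-like clusters held different members. The 641 nuclei led by Egfr, Kit and Ndnf held Col14a1 at 68.8 CPM (58.6 to 80.4) and Col26a1 at 181 CPM, with Col25a1 at 58.0 CPM. The 148 nuclei led by Pde11a, Hcrtr2 and Hapln1 held Col14a1 at 4.59 CPM (0.663 to 15.5) and Col26a1 at 71.4 CPM, while Col25a1 was at 1294 CPM (1195 to 1398).

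In Vip-like nuclei 5 members stood out as well, Col26a1 among them. They were marked by Col24a1 (41.2 to 109.9 CPM, mean 81.6 ± 21.8) and by Col15a1, a basement membrane zone collagen (21.2 to 75.7 CPM, mean 43.1 ± 15.6). Col24a1 was higher than in Neuroblast-like nuclei, the next type, in 10 of 10 animals, and Col15a1 was higher than in STR D2-like nuclei in 12 of 12. The ranges overlapped in both cases. Col5a1 (mean 32.5 ± 12.4) and Col7a1 (mean 14.4 ± 9.83) were also highest there among inhibitory types, with overlap. Although the tissue was labelled cortex, nuclei with markers of striatal projection neurons were present, and Col6a1 stood out in both kinds (STR D1-like mean 84.1 ± 38.2, STR D2-like mean 79.7 ± 23.9). Neuroblast-like nuclei held Col12a1 (mean 37.7 ± 20.1, n = 10) and Col23a1 (mean 51.7 ± 26.8, n = 10), both overlapping with STR D1-like nuclei, the next type. Col23a1 ranged from 0 to 102 CPM there and was higher than in STR D1-like nuclei (mean 41.8 ± 28.6) in 7 of 10 animals. In WT alone, Col23a1 was highest in STR D1-like nuclei. Col8a1 (mean 10.3 ± 9.18) and Col9a3 (mean 15.4 ± 11.4) were highest in STR D1-like nuclei, with ranges that began at 0.

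**Figure D3:**
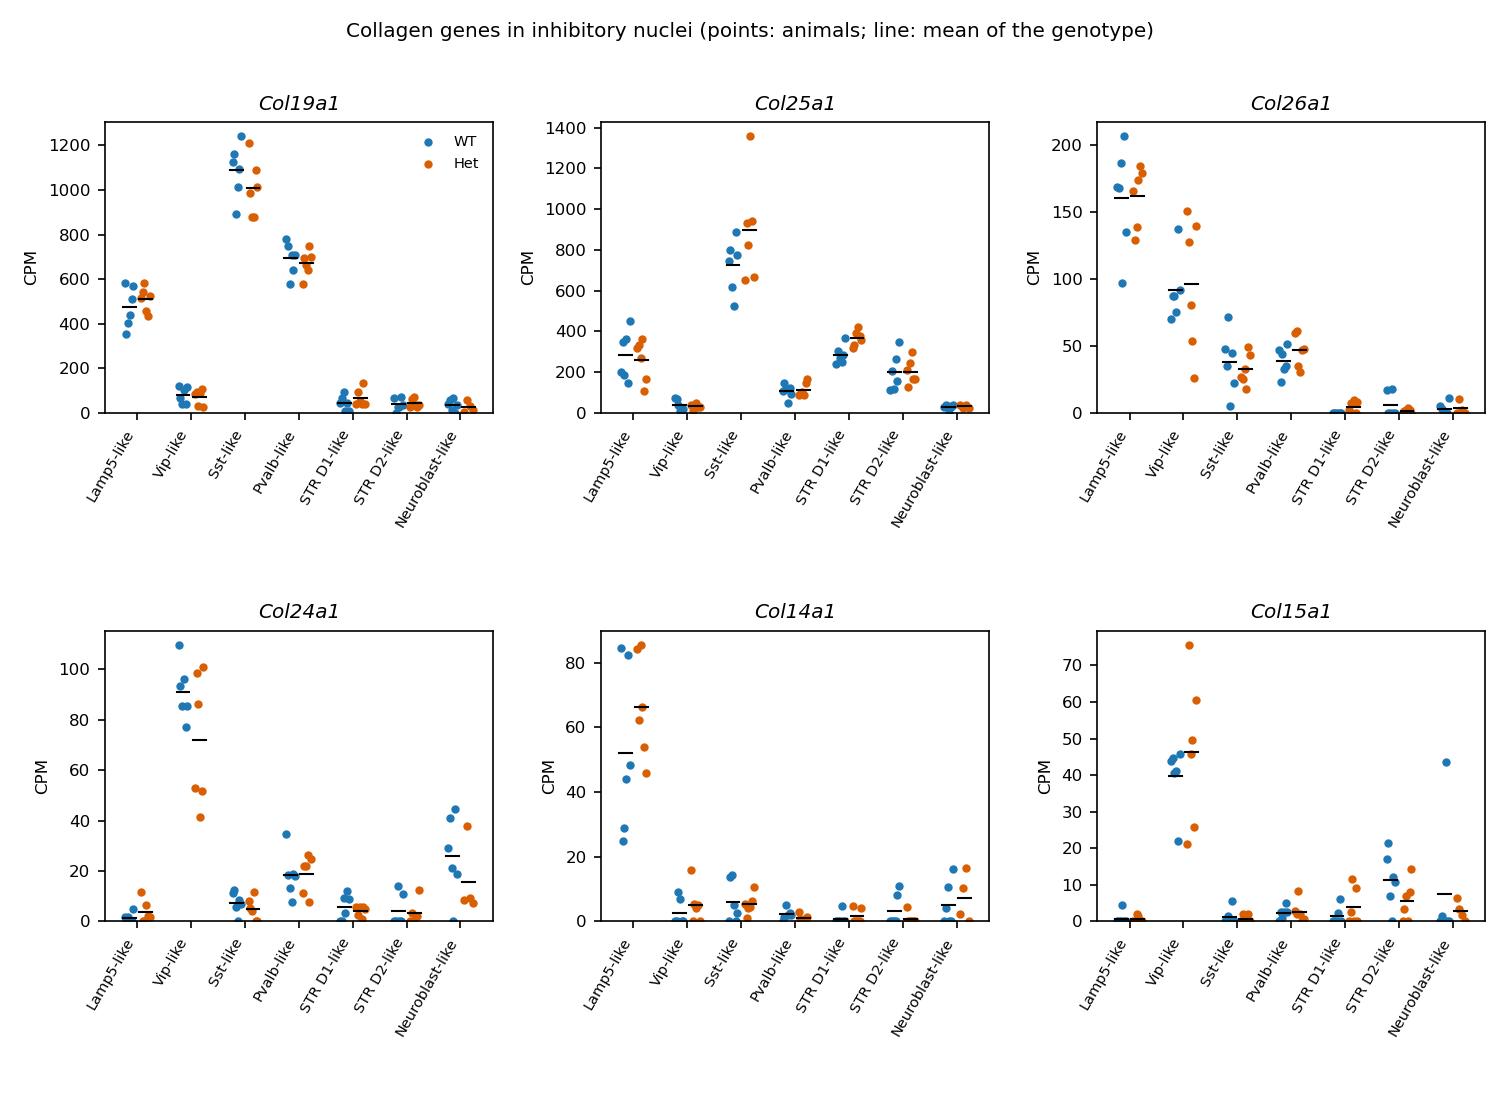
Level in CPM of 6 collagen genes in the 7 inhibitory cell types, 1 point per animal (blue WT, orange Het) with a line at the mean of each genotype. Col19a1 falls from Sst-like (mean 1049) through Pvalb-like (682) to Lamp5-like nuclei (492), Col26a1 and Col14a1 are highest in Lamp5-like nuclei, and Col24a1 and Col15a1 in Vip-like nuclei.

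Leptomeningeal-like nuclei, which cover the brain surface, had the highest summed collagen level of the 23 types. They were 1 cluster of 154 nuclei, led by Bnc2, Tbx15 and Slc47a1, with 12 of the listed markers raised. Their summed collagen level was 8369 ± 1381 CPM in the 6 animals with at least 10 such nuclei. The next of these types, Sst-like, had 2151 ± 249 CPM, and the lowest of the 23, oligodendrocyte-like, had 289 ± 36.9 CPM. With 0.465% of the nuclei, the leptomeningeal-like cluster held 3.90% of all collagen UMIs.

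The fibrillar genes of fibroblasts were nearly confined to it among types with enough animals. Col1a2 measured 543 to 947 CPM (mean 811 ± 169, n = 6), Col1a1 173 to 653 CPM (mean 445 ± 182) and Col3a1 74.1 to 411 CPM (mean 273 ± 126). Summed, these 3 genes had a mean of 1528 CPM in leptomeningeal-like nuclei, against means of 0 to 6.76 CPM over the 17 neuronal types. Fibroblast markers other than collagens summed to 1472 CPM there and to 3.61 to 46.8 CPM in the neuronal types. CA1-ProS-like nuclei had the highest of the latter, and the part of such RNA in the neuronal collagen levels was not tested. In OPC-like and astrocyte-like nuclei the 3 collagens summed to 37.8 and 35.5 CPM.

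Further members were high there too. Col25a1 reached 1931 to 4835 CPM (median 2719, mean 2961 ± 1051, n = 6), above every animal of every neuronal type. Col12a1 (mean 843 ± 243), Col8a1 (563 ± 174), Col23a1 (525 ± 249), Col6a2 (399 ± 58.5), Col11a1 (364 ± 88.3), Col6a1 (305 ± 150.2) and Col5a2 (295 ± 125) were also highest in this type among the non-neuronal ones. For each of these 8 genes the leptomeningeal-like range lay above that of the next non-neuronal type. Col4a1 (126 ± 74.2) and Col4a2 (72.04 ± 44.1) were highest there among the non-neuronal types with at least 3 animals, with overlap. Col8a2 (91.5 ± 38.0) was highest there among these types too, without overlap.

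Other non-neuronal types each had a small set. Col9a3, a chain of the fibril-associated type IX collagen, measured 118 to 330.2 CPM in NFOL-like (newly formed oligodendrocyte) nuclei (mean 214 ± 57.2, n = 11), above OPC-like nuclei in 11 of 11 animals and without overlap. Col9a1 (mean 55.7 ± 24.3) and Col11a2 (99.3 ± 43.5) were also high in this type. OPC-like nuclei held Col11a1 (193 ± 47.1) and Col19a1 (63.5 ± 34.4), astrocyte-like nuclei Col4a5 (58.9 ± 35.1, n = 8), microglia-like nuclei Col27a1 (114 ± 61.7, n = 6) and Col15a1 (47.6 ± 30.0), and oligodendrocyte-like nuclei Col20a1 (46.5 ± 24.0). Of these levels, Col19a1 in OPC-like nuclei ranged from 0 CPM, while the others were above 0 in every animal. Col20a1 also stood out in NFOL-like nuclei (38.9 ± 22.5, from 0 CPM), with overlapping ranges. It was higher in oligodendrocyte-like than in NFOL-like nuclei in 6 of 11 animals. The microglia-like cluster of 143 nuclei scored 5.81 for microglia and 5.23 for oligodendrocyte markers, with Mobp and St18 among its top 10 genes, and the part of oligodendrocyte RNA in its levels was not tested.

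Endothelial-like nuclei were too few for levels per animal (31 nuclei over all animals). Pooled, their summed collagen level was 4703 CPM, and they held Col4a5 at 638 CPM (exact 95% Poisson interval 483 to 826, counting error only), Col4a1 at 464 CPM (334 to 629) and Col4a2 at 436 CPM (310.3 to 597). The cluster also held Col1a2 at 627 CPM (473 to 814), Col1a1 at 414 CPM (292 to 571) and Col3a1 at 336 CPM (226 to 479), and Rgs5, a pericyte marker, was among its leading genes. It scored 6.87 for endothelial and 5.06 for leptomeningeal markers. The part of pericyte or leptomeningeal RNA in its levels was not tested.

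Col4a1 and Col4a2, the main basement membrane chains, are neighbours read in opposite directions from a shared start region. Their windows of 300 bases, from 250 before to 50 after the start, are shown because these members moved together across types. They were taken from RefSeq on GRCm38.p6, with the Sp1-type motif GGGCGG or its reverse complement CCGCCC in capitals and each window written in its own gene's direction (Col4a1 chr8:11312777-11313076, minus strand, and Col4a2 chr8:11312555-11312854, plus strand):
Col4a1: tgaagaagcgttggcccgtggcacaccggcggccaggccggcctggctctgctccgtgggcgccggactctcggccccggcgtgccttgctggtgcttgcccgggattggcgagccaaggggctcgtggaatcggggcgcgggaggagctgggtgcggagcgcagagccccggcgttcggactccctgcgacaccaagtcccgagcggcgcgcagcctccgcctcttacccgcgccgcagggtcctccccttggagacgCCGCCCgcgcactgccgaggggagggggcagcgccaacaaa
Col4a2: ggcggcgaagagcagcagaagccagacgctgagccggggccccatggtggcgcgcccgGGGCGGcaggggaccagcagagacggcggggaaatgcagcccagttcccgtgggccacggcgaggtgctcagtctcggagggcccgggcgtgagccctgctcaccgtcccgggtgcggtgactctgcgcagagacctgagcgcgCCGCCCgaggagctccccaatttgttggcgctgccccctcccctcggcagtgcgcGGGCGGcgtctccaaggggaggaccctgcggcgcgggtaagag
The windows overlapped by 78 bases. The motif occurred 1 time in the Col4a1 window and 3 times in that of Col4a2, CCAAT (either strand) 1 time in each, and TATAAA in neither. The GGGCGG match of Col4a1 lay in the overlap. It was the same bases as the last match of the Col4a2 window, read on the other strand. Among 32851 RefSeq promoter windows of the same length, GGGCGG was found in 35.7%, CCAAT in 37.4% and TATAAA in 13.6%. Of the 38 windows of 35 matched members, 60.5%, 34.2% and 13.2% held them. A match is a description of the letters, not a site of binding.

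Across the 23 types, the mean levels of Col4a1 and Col4a2 rose and fell together (Pearson's r = 0.91, Spearman's rho = 0.93, on log2 of the mean CPM plus 1), and within the 17 neuronal types r was 0.88. These types come from the same libraries and differ in depth, so the correlation is a description. Among neurons both were highest in L2/3 IT-like nuclei, at 52.7 to 97.2 CPM for Col4a1 (mean 69.8 ± 14.6) and 45.4 to 117 CPM for Col4a2 (mean 77.4 ± 21.9). Both were low in Pvalb-like nuclei (12.5 ± 4.65 and 11.7 ± 4.76).

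Other close neighbours did not run in parallel to that extent. Col6a1 and Col6a2 had r = 0.52 and Col4a3 and Col4a4, whose starts are also close, r = 0.10. Col4a3 stayed under 10 CPM in all 23 types, so its r says little. Among further pairs, Col4a5 and Col4a6 had r = 0.47, and Col3a1 and Col5a2 r = 0.67 with rho = 0.005. Col9a1 and Col19a1 lie 9206 bases apart on opposite strands and had r = -0.41. Col1a1 and Col1a2, on different chromosomes, had r = 0.97 and rho = 0.67, and r = 0.52 within the 17 neuronal types. Of the 44 members, 28 overlapped another annotated gene, 15 of them on the same strand and 5 a protein-coding gene, so reads in such stretches may be counted for either.

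Het was then compared with WT by edgeR's quasi-likelihood test on sums per animal and type, in 22 types. A call needed a Benjamini-Hochberg adjusted p under 0.05 over all genes tested in the type and a log2 change over 0.2 in size. Of the 44 members, 19 passed the filter on low counts in at least 1 type, giving 72 pairs of a gene and a type. Only 1 of the 72 was called, where 0.159% of the 77760 pairs over all genes were called. The other 25 members could not be tested in any single type. An unadjusted p under 0.05 was found for 16 of the 72 pairs (22.2%, against 6.76% over all genes), in both directions, and the median log2 change of the 72 was 0.04. By type, 1.07% of genes were called in L6 CT-like, 0.2% in L5 IT-like, 0.191% in L4/5 IT-like, 0.173% in CA1-ProS-like, 0.104% in Sst-like, 0.0708% in L6 IT-like, 0.0329% in Vip-like, 0.0322% in DG-like and 0.018% in Pvalb-like nuclei, and 0.0% in the other types.

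**Figure D4:**
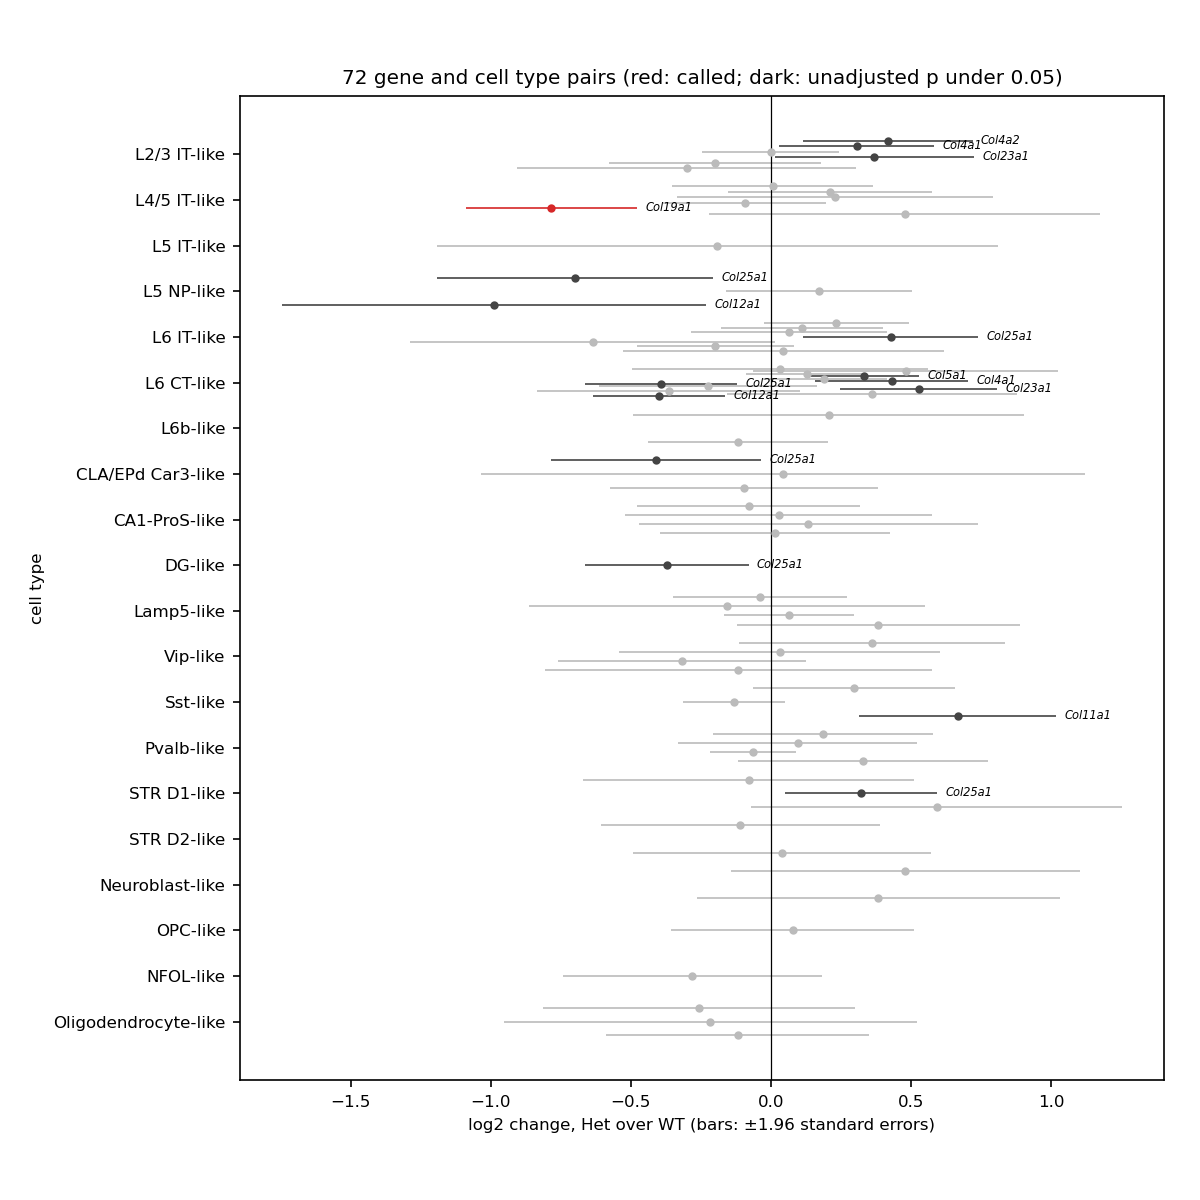
Log2 change of Het over WT for the 72 pairs of a collagen gene and a cell type that could be tested (points, with bars of the 95% interval), by cell type. The red point is Col19a1 in L4/5 IT-like nuclei at -0.78, the only pair called, and dark points are the other pairs with an unadjusted p under 0.05.

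The pair called was Col19a1 in L4/5 IT-like nuclei, which fell in Het. WT animals measured 59.5 to 122 CPM (median 85.0) and Het animals 42.0 to 65.4 CPM (median 56.5). The groups overlapped, with 4 of 6 Het animals below all WT animals. The log2 change was -0.78 (SE 0.16, edgeR adjusted p = 0.021). In this type 0.191% of 6292 genes were called, and 0.127% were called lower in Het.

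This call depended on single libraries and on the limits on nuclei. It was lost without WT male 3 (log2 change -0.64, edgeR adjusted p = 0.135), without WT female 3 (-0.73, 0.0986) and without Het male 3 (-0.79, 0.0649), and when likely doublets were kept (-0.68, 0.0595). With the maxima of UMIs and genes lifted, which gave 6849 in place of 2193 nuclei, WT animals measured 69.5 to 118 CPM and Het animals 49.2 to 82.1 CPM, and the change was -0.32 (adjusted p = 0.586). DESeq2 gave no adjusted p for it. L4/5 IT-like nuclei were 6.96 ± 1.76% of nuclei in WT and 6.21 ± 1.04% in Het. In both large L4/5 IT-like clusters the mean of the Het males was below that of the WT males, without overlap in the larger (33.0 against 79.7 CPM) and with overlap in the smaller (85.9 against 142 CPM). The mean of the Het females was below that of the WT females in the smaller cluster (70.5 against 130 CPM), but not in the larger (59.7 against 50.8 CPM). The larger cluster, with the lower Col19a1 level, held 50.8% of the L4/5 IT-like nuclei in WT females and 62.2% to 63.2% in the other groups, and the smaller held 40.1% in WT females and 32.6% to 32.9% in the others. The part of this split in the call was not tested.

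The next smallest p-values in single types were in Sst-like and L6 CT-like nuclei and did not pass adjustment. Col11a1 in Sst-like nuclei measured 51.2 to 97.6 CPM in WT (median 82.9) and 85.4 to 178 CPM in Het (median 124). All but 1 Het animal lay above every WT animal, and the log2 change was 0.67 (SE 0.18, edgeR adjusted p = 0.183, range over the alternatives 0.125 to 0.944).

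In L6 CT-like nuclei 5 of 12 members tested had an unadjusted p under 0.05, against 10.1% of all 8415 genes, and none was called by edgeR, where 1.07% of genes were. DESeq2 called 1 pair in the single types, Col23a1 in this type, and 0.242% of pairs over all genes and types. Col23a1 measured 66.4 to 116 CPM in WT (median 85.9) and 93.4 to 170 CPM in Het (median 131), with 4 Het animals above all WT. Its log2 change was 0.53 (SE 0.14, edgeR adjusted p = 0.0935, DESeq2 0.0118). Col5a1, the marker of this type, measured 181 to 288 CPM in WT (median 206) and 260 to 317 CPM in Het (median 289), with 3 Het animals above all WT (log2 change 0.33, SE 0.10, edgeR adjusted p = 0.116). Col12a1 measured 51.7 to 95.5 CPM in WT (median 73.8) and 47.9 to 65.5 CPM in Het (median 59.6), with overlapping groups (log2 change -0.40, SE 0.12, edgeR adjusted p = 0.106).

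Col25a1 had an unadjusted p under 0.05 in 6 types, in differing directions, a pattern noticed after its values were seen. In the 6 types its log2 change was -0.70 in L5 NP-like, -0.41 in CLA/EPd Car3-like, -0.39 in L6 CT-like and -0.37 in DG-like nuclei, and 0.43 in L6 IT-like and 0.32 in STR D1-like nuclei. None passed adjustment (edgeR adjusted p from 0.207 to 0.681). For the layer markers Col6a1, Col8a1, Col24a1 and Col26a1 no tested pair of Het against WT was called. Over all genes and types 0.159% of pairs were. Col8a1 did not pass the filter on low counts in L6b-like nuclei and was not tested there. Its mean in L6b-like nuclei was 78.4 CPM in WT and 51.2 CPM in Het, with overlap between the groups.

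Sums over all nuclei, all excitatory nuclei and all inhibitory nuclei allowed 93 pairs to be tested, 41 members among them in all nuclei. In such sums fewer cells of a type and less RNA per cell cannot be told apart. None of the 93 was called by edgeR, where 0.135% of pairs over all genes were (0.0% in all, 0.178% in excitatory and 0.28% in inhibitory nuclei), and 12 had an unadjusted p under 0.05 (6.76% of the pairs over all genes in the 3 sums). DESeq2 called 2, where it called 0.421% of pairs over all genes.

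Both DESeq2 calls were Col5a1. Over all nuclei it measured 30.9 to 48.6 CPM in WT (median 38.7) and 47.7 to 62.2 CPM in Het (median 50.5), and 4 Het animals lay above all WT animals. The log2 change was 0.43 (SE 0.09, edgeR adjusted p = 0.181, DESeq2 0.0222). Over excitatory nuclei it was 0.48 (SE 0.12, edgeR adjusted p = 0.124, DESeq2 0.0109). L6 CT-like nuclei, which hold most of it, were 12.6 ± 1.77% of nuclei in WT and 13.4 ± 1.25% in Het, and whether this share bears on the sums was not tested.

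Col15a1 over excitatory nuclei was the pair of this list whose groups did not overlap. It measured 5.09 to 8.15 CPM in WT (median 7.42) and 8.55 to 13.1 CPM in Het (median 9.32). Its log2 change was 0.48 (SE 0.14, edgeR adjusted p = 0.206). The share of all genes whose groups did not overlap in this sum was not computed. DG-like nuclei, which held Col15a1 at 2.92 to 39.0 CPM, were 2.11 ± 0.307% of nuclei in WT and 2.85 ± 0.788% in Het. L6b-like nuclei, at 0 to 46.2 CPM, were 1.57 ± 0.470% and 1.46 ± 0.294%. Over inhibitory nuclei Col11a1 measured 30.3 to 53.6 CPM in WT (median 36.4) and 41.2 to 68.5 CPM in Het (median 53.0), with overlap (log2 change 0.44, SE 0.14, edgeR adjusted p = 0.372). Over all nuclei Col19a1 measured 150.3 to 187 CPM in WT (median 165) and 137 to 155 CPM in Het (median 147). Of the Het animals 4 lay below all WT animals (log2 change -0.19, SE 0.07, edgeR adjusted p = 0.641). Sst-like nuclei, where Col19a1 was highest, were 3.24 ± 0.493% of nuclei in WT and 2.61 ± 0.320% in Het. Pvalb-like nuclei, where it was next, were 5.70 ± 0.984% and 4.92 ± 0.617%. Lamp5-like nuclei, which followed, were 2.26 ± 0.453% and 2.42 ± 0.153%. STR D1-like nuclei were 1.69 ± 0.652% and 2.55 ± 0.433%, and STR D2-like nuclei 1.27 ± 0.363% and 2.37 ± 0.376%. The part of these shares in the sums was not tested.

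The sex by genotype term asked whether the Het difference differed between females and males. Of 72 pairs, 1 was called (0.0141% of 77760 pairs over all genes; a call here needed an adjusted p under 0.05): Col19a1 in L2/3 IT-like nuclei, where 0.0298% of 6702 genes were. WT males measured 284, 283 and 310.3 CPM and WT females 181, 169.8 and 205 CPM. Het males measured 156, 175 and 169 CPM and Het females 224, 301 and 269 CPM.

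WT males and Het females were thus high, and WT females and Het males low, with no animal of the high groups at or below any animal of the low groups. The term was 1.28 on the log2 scale (SE 0.19, edgeR adjusted p = 0.000523), meaning that the Het over WT difference was higher in females than in males by this amount. Averaged over the sexes, Het against WT was not called for Col19a1 in this type. In the larger of the L2/3 IT-like clusters the groups kept that order, at 300 to 375 CPM in WT males, 192 to 235 in WT females, 204 to 211 in Het males and 261 to 358 in Het females. In the smaller cluster the split was not seen in WT, at 66.9 to 156 CPM in WT males and 61.1 to 115 in WT females, while Het males measured 36.4 to 43.5 and Het females 110.4 to 171.

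The call held in 15 of 16 alternatives, including each of the 12 that left out 1 animal, and was lost when the maxima of UMIs and genes were lifted (0.84, adjusted p = 0.358). With these limits lifted, WT males measured 234 to 334 CPM, WT females 208 to 219.6, Het males 151 to 224 and Het females 236 to 283. The order of the group means was kept and the high groups still did not overlap with the low groups. Each sex and genotype was 3 animals, and their litters are not given.

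**Figure D5:**
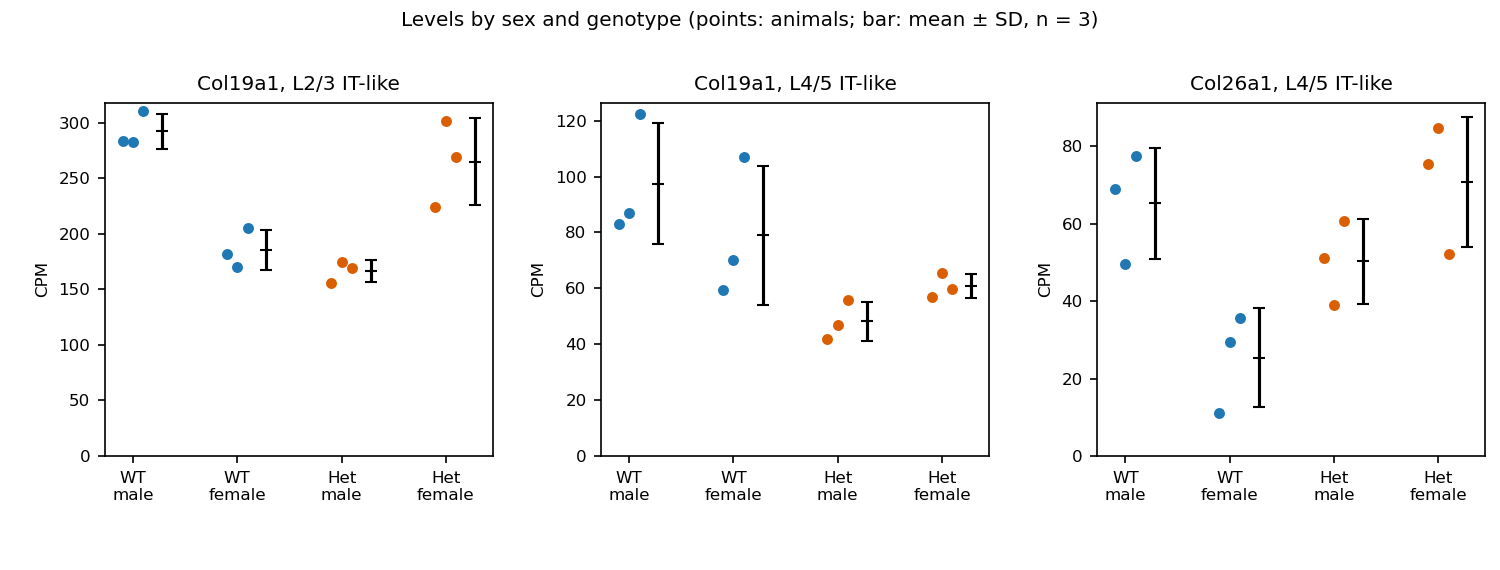
Level in CPM of Col19a1 in L2/3 IT-like and L4/5 IT-like nuclei and of Col26a1 in L4/5 IT-like nuclei, by sex and genotype, 1 point per animal with the mean and SD of 3 animals beside it. In L2/3 IT-like nuclei WT males (283 to 310.3) and Het females (224 to 301) lie above WT females (169.8 to 205) and Het males (156 to 175).

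Col26a1 in L4/5 IT-like nuclei had the next smallest p for this term. WT males measured 68.9, 49.5 and 77.5 CPM, WT females 11.2, 29.5 and 35.7, Het males 51.0, 39.0 and 60.7, and Het females 75.3, 84.7 and 52.1. WT females were the low group and overlapped with no other. The term was 1.70 (SE 0.39) and did not pass adjustment (edgeR adjusted p = 0.0813). For Col19a1 in L4/5 IT-like nuclei WT males measured 82.9, 87.1 and 122 CPM, WT females 59.5, 70.3 and 107.0, Het males 42.0, 46.8 and 55.8, and Het females 57.1, 65.4 and 59.8.

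The share of leptomeningeal-like nuclei, which would move the fibrillar members in any sum, was 0.0996% to 1.42% of nuclei in WT (mean 0.492 ± 0.513%) and 0.113% to 0.854% in Het (mean 0.540 ± 0.284%). The groups overlapped, and the difference of 0.047 percentage points did not pass an exact permutation test of all relabellings (two-sided p = 0.848). Only 6 animals, 2 WT and 4 Het, had at least 10 of these nuclei, so the type was not tested in the main comparison. With at least 5 nuclei (4 WT and 6 Het animals, a limit chosen after the data were seen), edgeR called none of 11 members and none of 855 genes (0.0%). Of the 11, 2 had an unadjusted p under 0.05, Col23a1 (log2 change 0.76, edgeR adjusted p = 0.997) and Col8a1 (-0.68, adjusted p = 0.997).

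Genes that process or bind collagens were described beside them. The share of all genes that were highest in leptomeningeal-like nuclei was not computed. The counts below therefore do not set these lists apart from other genes. Of 33 enzymes and chaperones that modify, process or export collagen, 31 reached 10 CPM in a type, and 14 of these were highest in leptomeningeal-like nuclei. Among them were Tll1, a procollagen C-proteinase (mean 813 ± 224 CPM, n = 6), Adamts2, a procollagen N-proteinase (540.4 ± 157), and Serpinh1, the collagen chaperone (143 ± 41.4). Adamts3, a related N-proteinase, was instead highest in STR D1-like nuclei (514 ± 93.96, n = 12).

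Of 12 collagen receptors 10 reached that level, and 7 were highest in leptomeningeal-like nuclei, such as Mrc2, an endocytic receptor (568.4 ± 169), and Ddr2 (484 ± 162). The other discoidin domain receptor, Ddr1, was highest in oligodendrocyte-like nuclei (445 ± 91.3) and Lair1, an inhibitory immune receptor, in microglia-like nuclei (429 ± 58.6). Of 16 basement membrane partners 13 reached it and 6 were highest in leptomeningeal-like nuclei, with Fn1 at 1051 ± 147 CPM. Lama2 was highest in astrocyte-like (1094 ± 126, n = 8) and Lama4 in Sst-like nuclei (196 ± 45.0). Of the fibroblast markers, a list chosen as a check of meningeal signal, 8 of the 9 that reached 10 CPM were highest in leptomeningeal-like nuclei.

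In Het against WT, none of these lists had a call in a type by edgeR or by DESeq2. The numbers with an unadjusted p under 0.05 were 9 of 108 pairs for the enzymes, 1 of 17 for the receptors, 2 of 34 for the basement membrane partners and 0 of 2 for the fibroblast markers, against 6.76% over all genes. In the sums there were again no calls by either tool, with 7 of 68, 4 of 27, 4 of 31 and 2 of 10 pairs at an unadjusted p under 0.05, where 6.76% of pairs over all genes in the sums had one.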

How the data were processed

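Nuclei of 12 cortices were profiled by combinatorial indexing (ScaleBio). Reads were mapped by the authors to mm10 (ScaleRna), who deposited expected counts per gene and nucleus, which are not normalized. Of the entries 92.6% were whole numbers, since a UMI that fits several genes is divided among them. Whether counting used the strand is not given in the sources used here. The submitters' processing notes name Seurat 4.3.0 and DESeq2 1.38.3.

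Of 78743 barcodes, 34860 met the study's limits (UMIs from 800 to 6000, genes from 300 to 3000, mitochondrial share up to 1%, log genes over log UMIs 0.9 or more), with no barcode shared between libraries. The study's methods state more nuclei at this age than there are barcodes in the files used here, and the reason is not given in the sources used here. The 5% with the highest doublet scores per library were removed. Counts were scaled to 10000, and the 3000 most variable genes, without collagens, sex-linked genes, the viral transcript and Myt1l, gave 50 principal components, 20 neighbours and leidenalg 0.10.2 clusters (scanpy 1.11.5, python 3.11.15). Clusters were named by marker genes, and those that missed the criteria stayed unnamed.

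Sums per animal and type (at least 10 nuclei, at least 3 animals per genotype) were rounded and tested with edgeR 4.0.16 in R 4.3.3 (TMM, filterByExpr, robust quasi-likelihood fit, genotype only, Benjamini-Hochberg adjustment). DESeq2 1.42.0 was an alternative. The tests were checked on simulated counts. All p-values are two-sided. Other alternatives were another normalization, no filter, other limits on nuclei, no doublet removal, 30 principal components, sex as a covariate, a replicate block and leaving out each animal. The members and lists were chosen with earlier results of these data known, and a cell type's levels carry no test.

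The text names the members that stood out in a type, except Col5a3, Col9a2 and Col18a1, whose levels are not described. It also names members called in any test and the 5 pairs with the smallest p in types and in sums. Col1a1, Col1a2 and Col3a1 are named as measures of meningeal RNA. Positions are from the GENCODE annotation of mm10, where 44 of 44 identifiers were matched, 42 of them with the same version.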

Additional observations from a re-analysis of the deposited data

Results flagged for a closer look

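Col19a1 in L2/3 IT-like nuclei stood out because its Het over WT difference went in opposite directions in males and females. The sex by genotype term was 1.28 on the log2 scale (edgeR adjusted p = 0.000523), and the values of the 12 animals are given above. The paper states that its own fits held no significant sex by genotype interaction for autosomal genes, likely because power was limited. Its clusters and its test differed from those used here. The cause was not tested.

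Among 48 groups of 4 to 10 animals tested for an animal far from the others, 2 were found, where chance finds about 1 in 20. Col4a6 in astrocyte-like nuclei had 1 animal at 138 CPM, a gap of 0.796 of the range to the nearest of 8 animals, and the median was 0 CPM. Col27a1 in microglia-like nuclei had 1 animal at 229 CPM, a gap of 0.654 of the range of 6 animals, with a median of 99.02 CPM. Both levels rest on few nuclei per animal.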

How the results depend on the processing

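Of collagen genes in each cell type, 1 pair was called in Het against WT; the count was 4 with no filter on low counts, 3 without the upper limits on nuclei, 0 with no doublet removal and 0 with the replicate block, and 0 to 3 when 1 animal was left out (0 without WT male 3, WT female 3 or Het male 3, 2 without WT female 1, WT female 2, Het male 2 or Het female 3, and 3 without WT male 2). The share of all gene and type pairs called was 0.159%, against 0.0508%, 0.18%, 0.14%, 0.139% and 0.0802% to 0.233% under these settings in turn. In the sums it was 0, but 2 with DESeq2, 4 with no filter and 2 without the upper limits, and 0 to 1 when 1 animal was left out (1 without WT female 1), with 0.135% of all pairs called, against 0.421%, 0.291%, 0.105% and 0.0565% to 0.222%. The sex by genotype count over types and sums was 1, but 2 with DESeq2 and 0 without the upper limits (this alternative was chosen after the data were seen), and 1 to 3 when 1 animal was left out (2 without Het male 3 or Het female 3, and 3 without WT male 2), with 0.00918% of all pairs called, against 0.0117%, 0.00307% and 0.00408% to 0.0577%. In L6 CT-like nuclei Col23a1 and Col5a1 passed with no filter (edgeR adjusted p 5.1e-05 and 0.00421) and without the upper limits (0.0178 and 0.0143). The difference in the leptomeningeal share ranged from -0.0311 to 0.233 percentage points when 1 animal was left out and was below 0 in 5 of these 12, namely -0.0311 without WT male 1, -0.0188 without WT male 2, -0.000734 without WT male 3, -0.000544 without WT female 3 and -0.0154 without Het female 3 (exact permutation p from 0.193 to 0.998 over the 12). The number of pairs that stood out, 92, was 83 to 93 under the alternatives. The 26 named neuronal levels stayed within 1 SD in 390 of 390 settings. Most of these settings left out 1 animal, which cannot move a mean of this many animals by 1 SD, so that count does not measure stability. The cause of these changes was not tested.

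The replicate numbers of the labels do not pair the animals: the deviations of same-numbered WT and Het animals had correlations from -0.523 to 0.0654, with 0 of 6 over 0.1, and 1 animal correlated best with its own number. With the replicate block, Col19a1 in L4/5 IT-like nuclei had a log2 change of -0.75 (adjusted p = 0.0867).

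Precision is limited by the number of nuclei per animal and type, which was lowest in non-neuronal types, and 25 members were too low to test in any single type. Unnamed clusters held the remaining nuclei and are not in the levels by type.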

Other observations

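Col14a1 was not limited to the named Lamp5-like nuclei. An unnamed inhibitory cluster of 317 nuclei, led by Frem1, Npas3, Adarb2 and Cnr1, held it at 151 CPM, pooled over animals. Col23a1 was likewise high in an unnamed excitatory cluster of 128 nuclei led by Dcn and Pde11a, at 436 CPM. An unnamed excitatory cluster of 476 nuclei led by Gm2164 and Ndst4 held Col4a1 at 86.5 CPM and Col4a2 at 103 CPM, and another of 329 nuclei led by Unc13c and Abi3bp held Col25a1 at 477 CPM. These clusters were picked after their values were seen, and the values carry no test.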
